A study of Mus musculus with 2 samples.

Results

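The genes described here are the 8 genes of the natriuretic peptide system, measured in mouse hearts collected at embryonic day 10.5: the ligand genes Nppa, Nppb and Nppc, the processing proteases Corin and Furin, and the receptors Npr1, Npr2 and Npr3. They were chosen by name, not by a measured value, but with earlier results of these data known. They come from 43346 annotated mouse genes, and 33 of the 129984 tabulated transcripts belong to them. The embryos were of the mouse strain B6NCrl, with no allele or treatment named. The single group held 2 libraries, 1 from a pool of hearts of 69 embryos (replicate 1) and 1 from a separate pool of 51 embryos (replicate 2), each with both sexes. Each library was made from 10 ng of total RNA longer than 200 nt with added ERCC spike-ins, synthetic RNAs of known amount. Levels are given in TPM, a relative abundance corrected for transcript length, and every mean carries its SD over n = 2 pools. With 1 group and 2 pools no test was made and no p-value is given.

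Natriuretic peptides are hormones cut from longer precursors and closed into a ring by a disulfide bond. Atrial natriuretic peptide (from Nppa) and B-type natriuretic peptide (from Nppb) are made by heart muscle cells, and both genes mark the working myocardium of the forming chambers. Corin, a membrane-bound serine protease of heart muscle, cuts the Nppa precursor, and furin, a convertase of the secretory pathway present in most cells, cuts the precursors of Nppb and Nppc. Npr1 and Npr2 are membrane receptors with a guanylyl cyclase domain that make cyclic GMP. Npr1 answers to the products of Nppa and Nppb, Npr2 to C-type natriuretic peptide from Nppc, and Npr3 binds all of these peptides and clears them from the surroundings.

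The ligands share a stretch that encodes the ring, which runs from one cysteine codon to the next. It is printed here for Nppb and Nppc because these 2 genes, alike in this stretch, were far apart in RNA level. Each stretch is 51 bases long and lies in exon 2 of its gene. The sequences are from the GRCm38 (mm10) reference, 5′ to 3′ on the strand of the gene, and capitals mark bases identical in both genes.
Nppb, chr4:147986464-147986514, plus strand: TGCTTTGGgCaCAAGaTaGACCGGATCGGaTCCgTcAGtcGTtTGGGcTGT
Nppc, chr1:86669667-86669717, minus strand: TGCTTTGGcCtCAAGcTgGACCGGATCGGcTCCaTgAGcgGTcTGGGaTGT
Nppb and Nppc shared 40 of the 51 bases (78.4%). The stretch of Nppa was not compared.

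Nppa was by far the most abundant of the 8 genes. Nppa (ENSMUSG00000041616.9, chromosome 4, 148000722 to 148002079, plus strand) had levels of 2000.5 TPM (replicate 1) and 3797 TPM (replicate 2), and its expected counts were 46614 and 79776. Among 21474 protein-coding genes it took rank 27 in replicate 1 and rank 14 in replicate 2. Nppb (ENSMUSG00000029019.8, chromosome 4, 147985788 to 147987205, plus strand) stood at 103 and 261 TPM, from 2147 and 4886 counts, at ranks 1527 and 535. Both ligand genes were higher in replicate 2, and the ranges of the 2 genes over the pools did not overlap. Nppa was 19.3-fold above Nppb in replicate 1 and 14.5-fold above it in replicate 2. Nppa held 95.1% and 93.6% of the summed TPM of the 3 ligand genes.

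Nppc RNA was close to the detection floor. Nppc (ENSMUSG00000026241.5, chromosome 1, 86666291 to 86670571, minus strand) stood at 0.31 TPM in both pools, from 9 counts in replicate 1 and 8 in replicate 2. The exact 95% Poisson intervals of these counts, 4.12 to 17.1 and 3.45 to 15.8, cover counting error only. Nppc was the single gene of the 8 below 1 TPM, the level used here as the limit of detection. Nppb exceeded it by 8.38 on the log2 scale in replicate 1 and by 9.72 in replicate 2.

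The proteases lay far below Nppa. Corin (ENSMUSG00000005220.6, chromosome 5, 72300025 to 72504473, minus strand) stood at 11.4 and 16.8 TPM, from 1560 and 2115 counts. Furin (ENSMUSG00000030530.11, chromosome 7, 80388585 to 80405436, minus strand) stood at 15.1 and 17.5 TPM, from 1873 and 1904 counts. Furin was above Corin in each pool, by 0.40 and 0.06 on the log2 scale, but the Corin value of replicate 2 exceeded the Furin value of replicate 1, so the 2 levels were not separated beyond the spread of the pools. Per unit of length, Nppa RNA was 175-fold above Corin in replicate 1 and 226-fold in replicate 2. These are RNA levels, and the amounts of peptide and protease were not measured.

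The 3 receptors were detected at single-digit TPM in both pools. Npr3 (ENSMUSG00000022206.6, chromosome 15, 11839896 to 11907287, minus strand), the clearance receptor, stood at 6.81 and 8.67 TPM from 1414 and 1624 counts. Npr1 (ENSMUSG00000027931.8, chromosome 3, 90450591 to 90465866, minus strand) stood at 7.29 and 6.04 TPM from 582 and 409 counts. Npr2 (ENSMUSG00000028469.11, chromosome 4, 43631935 to 43651244, plus strand) stood at 4.63 and 4.73 TPM from 334 and 338 counts. Npr1 was the highest of the receptors in replicate 1 and Npr3 in replicate 2, and their ranges overlapped. Npr2 was the lowest of the 3 in both pools, and its range over the pools did not overlap those of the other receptors. Within a pool, however, the deposited TPM interval of Npr2 overlapped that of Npr1 in both replicates and that of Npr3 in replicate 1.

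By summed TPM the ligands reached 2104 and 4059, the proteases 26.5 and 34.3, and the receptors 18.7 and 19.4. Npr3 held 36.4% of the receptor sum in replicate 1 and 44.6% in replicate 2. In order of mean TPM the genes ran Nppa (2899 ± 1270), Nppb (182 ± 112), Furin (16.3 ± 1.72), Corin (14.1 ± 3.78), Npr3 (7.74 ± 1.32), Npr1 (6.67 ± 0.884), Npr2 (4.68 ± 0.0707) and Nppc (0.31 in both). Of the 28 pairs of genes, 26 had TPM ranges that did not overlap. The exceptions were Furin with Corin and Npr3 with Npr1. In all, 7 of the 8 genes were detected in both pools.

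**Figure D1:**
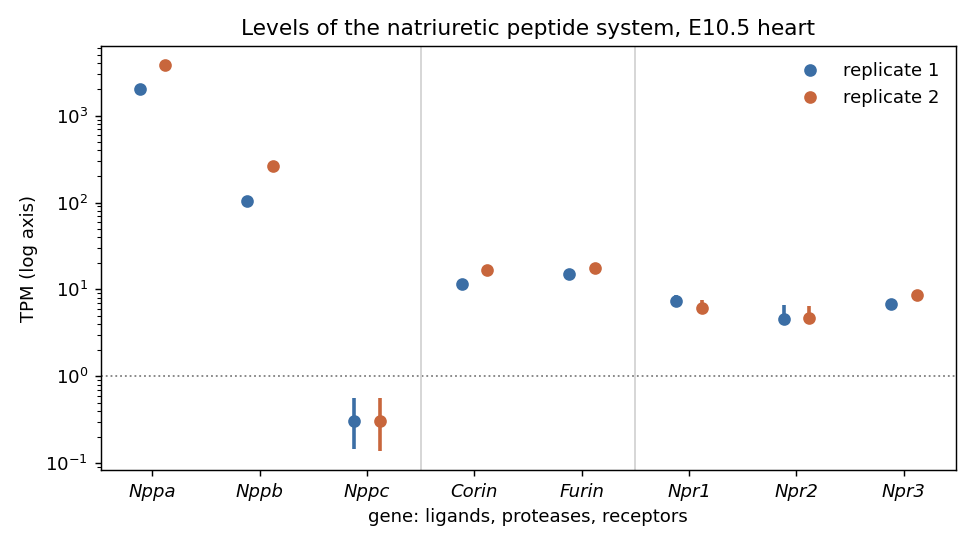
TPM (log axis) of the 8 genes in replicate 1 (blue) and replicate 2 (orange), with the deposited credibility interval as a vertical line and a dotted line at 1 TPM. Nppa lies between 2000.5 and 3797 TPM, the proteases between 11.4 and 17.5, the receptors between 4.63 and 8.67, and Nppc at 0.31; intervals narrower than the points are hidden by them.

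The receptor order depended on which transcripts were counted. Npr1-201, the protein-coding transcript, held 58.2% of the Npr1 TPM in replicate 1 and 52.5% in replicate 2, but 87.9% and 84.4% of its expected counts. The short Npr1-205 (949 nt), annotated as a retained intron, held 24.1% and 40.9% of the TPM from only 45.4 and 57.6 counts. Npr1-203, a transcript without a coding region, held 12.1% in replicate 1 and 1.71% in replicate 2, from 17.9 and 1.89 counts, and the retained intron Npr1-204 held 5.68% and 4.91%. On average Npr1-205 thus carried 32.5% of the Npr1 TPM and 10.9% of its counts, because TPM divides by length. Restricted to protein-coding transcripts, a choice made after seeing these data, Npr1 stood at 4.24 and 3.17 TPM. Npr2 restricted in the same way stood at 3.60 and 4.17 TPM, so that Npr1 was higher in replicate 1 and Npr2 in replicate 2. The lead of Npr1 over Npr2, 0.50 ± 0.21 on the log2 scale from whole genes, became −0.08 ± 0.45. The restricted Npr2 level includes 1.81 and 1.93 TPM of Npr2-205, whose annotated coding region begins at its first base, inside the gene. The longer Npr2-201 alone stood at 1.79 and 1.91 TPM, below Npr1-201 in both pools. The deposited intervals of Npr1-201 did not overlap between the pools, with the lower value in replicate 2, whereas those of the whole gene overlapped.

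Most of the Npr2 TPM was assigned to a pair of protein-coding transcripts. The longer Npr2-201 (3660 nt) held 38.7% and 40.3% of the TPM, from 194 and 186 counts. Npr2-205 (2106 nt), which starts inside the gene at position 43641284 and ends at the same place, held 39.1% and 40.7% from 111 and 106 counts. The mean shares of Npr2-201 and Npr2-205 were 39.5% and 39.9% of the TPM. By posterior means they were 31.8% and 30.1%, and by expected counts 56.6% and 32.2%. The shares of these 2 transcripts were alike in the pools. Minor transcripts were not: Npr2-210 held 15.6% in replicate 1 from 5.44 counts and was listed at 0 in replicate 2, while Npr2-202 and Npr2-207 were listed at 0 in replicate 1 and held 6.91% and 5.63% in replicate 2. Npr2-204 held 6.66% and 3.19%. Npr3 was tabulated with 1 transcript of 6927 nt; its counts exceeded those of Npr1 while the TPM ranges overlapped, because TPM divides by length.

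The 2 main transcripts of Corin differ in their first exon, which encodes the start of the short tail of corin inside the cell. Corin-202 starts upstream, with a first coding stretch of 69 bases. The first coding stretch of Corin-201 is 267 bases long and lies 222 bases further along the gene. The remaining 3072 coding bases are the same in both. The first 69 coding bases of each, from the minus strand of the GRCm38 reference, are shown because they are what tells the transcripts apart, and capitals mark the start codon.
Corin-202, chr5:72504371-72504439, minus strand: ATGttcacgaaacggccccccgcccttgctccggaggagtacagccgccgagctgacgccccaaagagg
Corin-201, chr5:72504080-72504148, minus strand: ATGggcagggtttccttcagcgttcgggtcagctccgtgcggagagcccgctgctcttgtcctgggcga
Corin-202 was the larger of the 2 in both pools, at 8.54 and 9.74 TPM, or 74.7% and 58.1% of the gene. Corin-201 came to 2.59 and 6.84 TPM, or 22.7% in replicate 1 and 40.7% in replicate 2. The deposited intervals of Corin-201, 1.5 to 3.69 TPM and 5.2 to 8.49 TPM, did not overlap, and those of Corin-202 did. Most of the extra Corin RNA of replicate 2 was thus assigned to Corin-201, whose expected count was 375 in replicate 1 and 893 in replicate 2, against 1180 and 1213 for Corin-202.

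Furin was also divided between transcripts with different first exons. Furin-201 (first exon at 80405319 to 80405431) stood at 10.3 and 9.64 TPM, or 68.6% and 55.1% of the gene. Furin-203 (first exon at 80402530 to 80402762) stood at 2.51 and 5.89 TPM, or 16.7% and 33.6%. Its deposited intervals, 1.44 to 4.54 and 3.77 to 8.74 TPM, overlapped. Furin-205, annotated as a retained intron, held 8.47% and 3.47%, from 219 and 94.0 counts, with intervals that did not overlap. Coding begins in exon 2 of both Furin-201 and Furin-203.

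**Figure D2:**
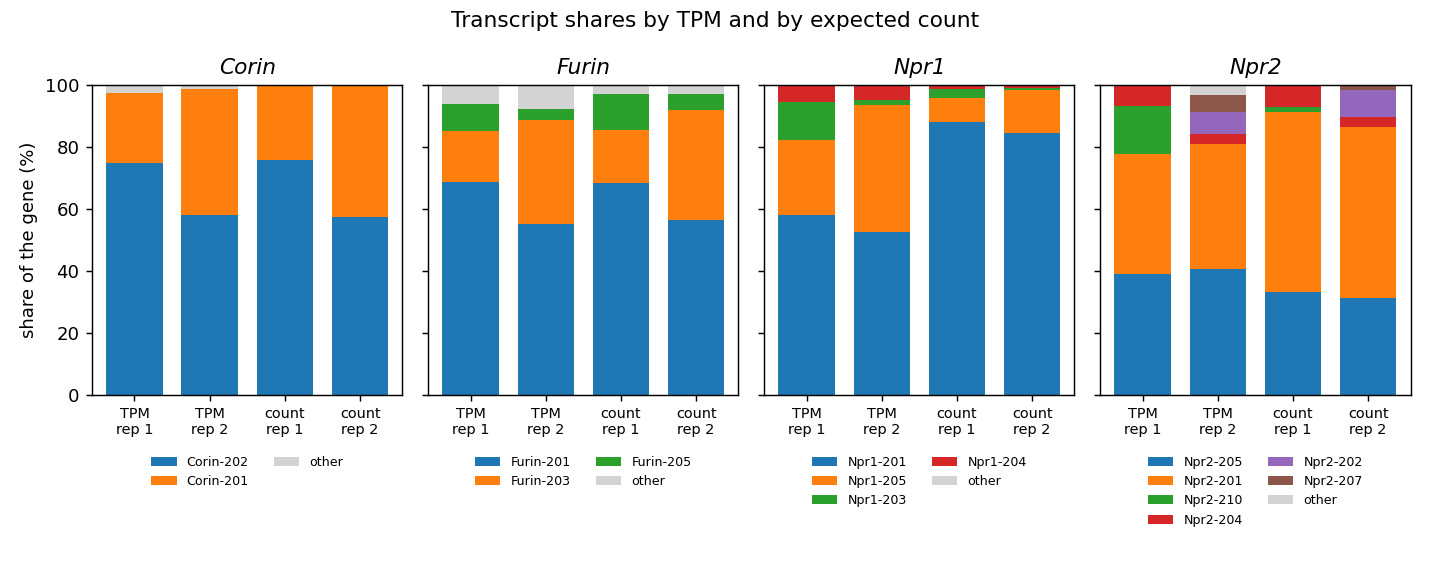
Share (%) of each gene held by its transcripts, by TPM and by expected count in replicates 1 and 2, for the 4 genes with more than 1 tabulated transcript; grey is the sum of transcripts under 5%. Corin-201 goes from 22.7% to 40.7% of the TPM between replicates 1 and 2, and Npr1-201 holds 58.2% and 52.5% of the TPM but 87.9% and 84.4% of the counts.

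The pools differed in several of these genes. The difference is given as the log2 ratio of expected counts scaled by the TMM method, replicate 2 over replicate 1, with an exact binomial 95% interval that covers counting error only. Nppb was 2.71-fold higher in replicate 2 (log2 1.44, counting interval of the fold 2.57 to 2.85) and Nppa 2.04-fold higher (log2 1.03, counting interval 2.01 to 2.06). These were the 2 of 7 genes with a mean count of 50 or more that passed 2-fold, and both were higher in replicate 2. Among 14124 genes with that mean count, 7.55% passed 2-fold in either direction, 2.44% higher and 5.11% lower in replicate 2. Both genes also had deposited TPM intervals that did not overlap between the pools, and 7.04% of all tested genes met both conditions, past 2-fold and no overlap. By the ratio of deposited TPM, Nppa was 1.90-fold higher and fell short of 2-fold, and Nppb was 2.52-fold higher.

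The other genes were closer in the 2 pools. Corin was 1.61-fold higher in replicate 2 (log2 0.69, counting interval 0.59 to 0.78). Npr3 had a log2 ratio of 0.45 (0.35 to 0.55), Furin of 0.27 (0.18 to 0.37) and Npr2 of 0.27 (0.05 to 0.49). Npr1 had a ratio of −0.26 (−0.44 to −0.07), the only one below 0, which turned to 0.06 when the libraries were scaled to the spike-ins. That scaling raised the median of all genes by 0.32, and the Npr1 ratio stayed below that median of 0.34. Nppc, with 9 and 8 counts, gave 0.08 with a counting interval of −1.49 to 1.63, and a difference inside that interval was not detectable at this depth. Of the 7 genes with a mean count of 50 or more, 6 were higher in replicate 2 by any amount, against 51.8% of all tested genes. The deposited TPM intervals of Nppa, Nppb, Corin, Furin and Npr3 did not overlap between the pools, and this held for 52.3% of all tested genes. The median log2 ratio of the 7 genes was 0.45, against 0.01 over all tested genes. Of the tested genes, 0.545% had a higher ratio than Nppb, 2.21% a higher one than Nppa, 6.68% a higher one than Corin and 77.7% a higher one than Npr1.

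**Figure D3:**
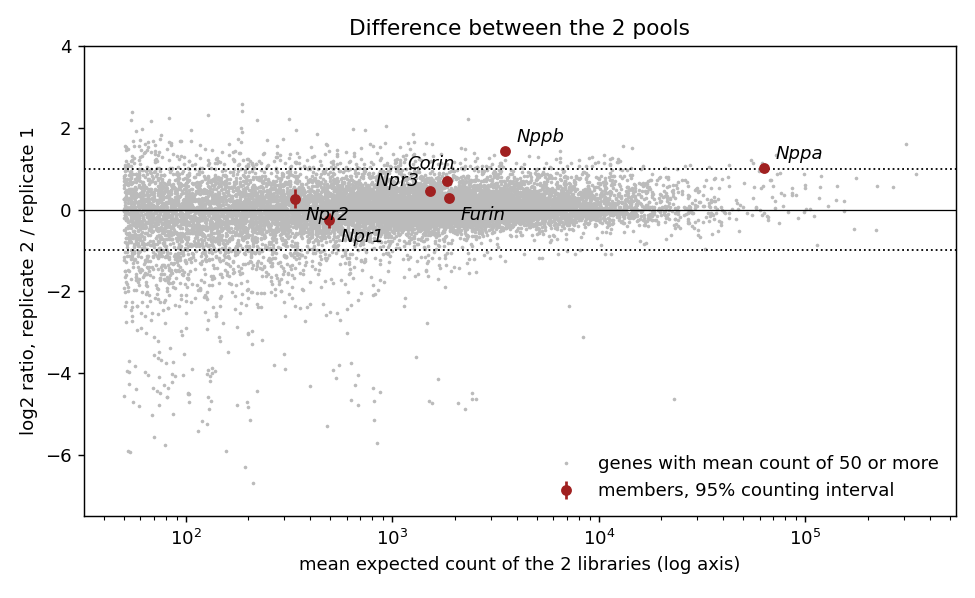
Log2 ratio of TMM-scaled counts, replicate 2 over replicate 1, against the mean expected count (log axis) for 14124 genes (grey) and the 7 member genes with a mean count of 50 or more (red, with 95% counting intervals); dotted lines mark 2-fold. Nppb (1.44) and Nppa (1.03) lie above the upper line, and the other 5 lie between the lines.

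Markers of cell types in the heart and of neighbouring tissue moved between the pools as well. All 11 heart muscle markers were detected in both pools and all were higher in replicate 2, 4 of them at least 2-fold, with a median log2 ratio of 0.88; Actc1 (cardiac actin) was at 0.88 and Myl7 (atrial myosin light chain) at 0.35. Their summed TPM was 24021 in replicate 1 and 40411 in replicate 2, and none was at 0. In bulk RNA, fewer cells of a type and less RNA per cell cannot be told apart. The 5 markers of trabecular muscle were all higher in replicate 2, with a median of 0.69, led by Gja5 (1.42) and Cited1 (1.27). The Nppa ratio lay 0.15 above the heart muscle median, and 4 of 11 markers had a higher ratio than Nppa. The Nppb ratio lay 0.56 above that median, with 1 of 11 markers higher, and 0.75 above the trabecular median, with 0 of 5 higher. Corin lay 0.19 below the heart muscle median, and 10 of 11 markers had a higher ratio. Set against the summed muscle markers, Nppa came to 8.33% in replicate 1 and 9.40% in replicate 2, Nppb to 0.431% and 0.646%, and Corin to 0.0476% and 0.0415%.

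Liver and foregut markers were higher in replicate 1. All 8 liver markers were at least 2-fold higher there, with a summed TPM of 1324 in replicate 1 and 53.8 in replicate 2, and so were 5 of 5 foregut markers and 4 of 5 tested cartilage and limb markers. Col2a1, a cartilage collagen and the most abundant of that list, had a ratio of 0.45, and the summed TPM of the list was 133 in replicate 1 and 142 in replicate 2. All 7 red cell markers were higher in replicate 2, with a median of 0.36 and a summed TPM of 32617 and 40800. Afp (alpha-fetoprotein) stood at 737 and 27.6 TPM. The part of these differences in the ratios of the natriuretic genes was not tested. Of the 10 endothelial and endocardial markers, which include Plvap (0.31) and Egfl7 (−0.05), 8 were higher in replicate 2, with a median of 0.52. Npr3 lay 0.07 below that median and came to 1.33% and 1.43% of their summed TPM. Npr1 lay 0.78 below it, with 10 of 10 markers higher, and came to 1.42% and 0.999%. The 7 markers of cushion mesenchyme had a median of −0.64, with Col1a1 at −0.95, and 1 of the 7 had a higher ratio than Npr2.

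**Figure D4:**
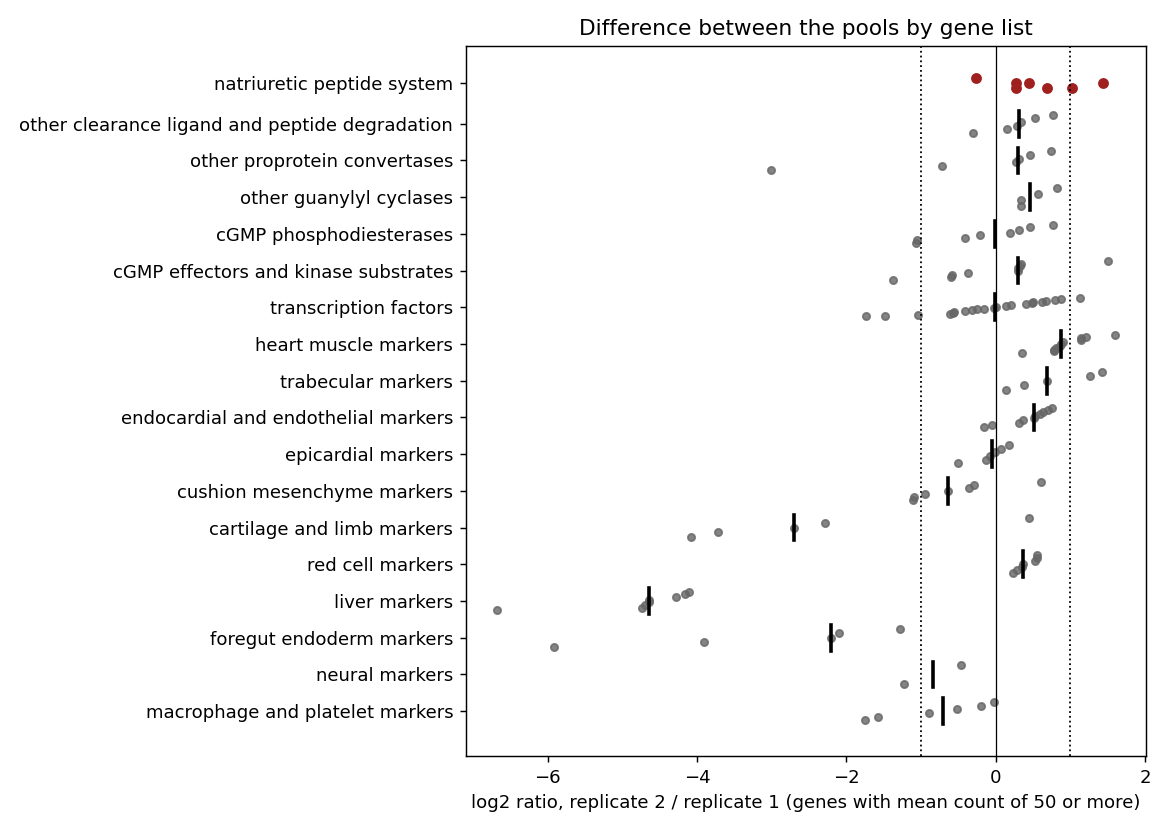
Log2 ratio of TMM-scaled counts, replicate 2 over replicate 1, for genes with a mean count of 50 or more, by gene list; each point is a gene, black bars are list medians, dotted lines mark 2-fold and vertical offsets within a row only separate points. Heart muscle markers have a median of 0.88 and liver markers of −4.64, and the natriuretic peptide system, in red, runs from −0.26 to 1.44.

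Nppb and Nppa are neighbours on the plus strand of chromosome 4, Nppb first, with 13516 bases between them. The annotated genes described here around them had lower levels and smaller ratios between the pools. Clcn6, a chloride transporter gene 2179 bases beyond Nppa on the minus strand, stood at 6.95 and 6.77 TPM (log2 ratio 0.12). On the other side, 2510039O18Rik stood at 15.4 and 11.5 TPM (−0.31) and Plod1, a collagen lysyl hydroxylase gene, at 33.9 and 38.1 TPM (0.29). The pseudogene Gm13207 had 8 and 5 counts.

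Gm13054, annotated as antisense to Nppa (148001091 to 148004014, minus strand), overlaps it by 989 bases, and 64.9% of its exon bases lie over Nppa exons. It had 416 and 543 expected counts, or 0.892% and 0.680% of those of Nppa, and 19.0 and 27.4 TPM. The use of strand in counting is not stated, so reads of Gm13054 and Nppa cannot be told apart. Of the antisense genes over other members, Gm12473 over Npr2 had 21 and 10.7, Gm16048 over Npr1 had 0 and 7.02, and Gm20647 over Corin had 3.04 and 1.01.

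**Figure D5:**
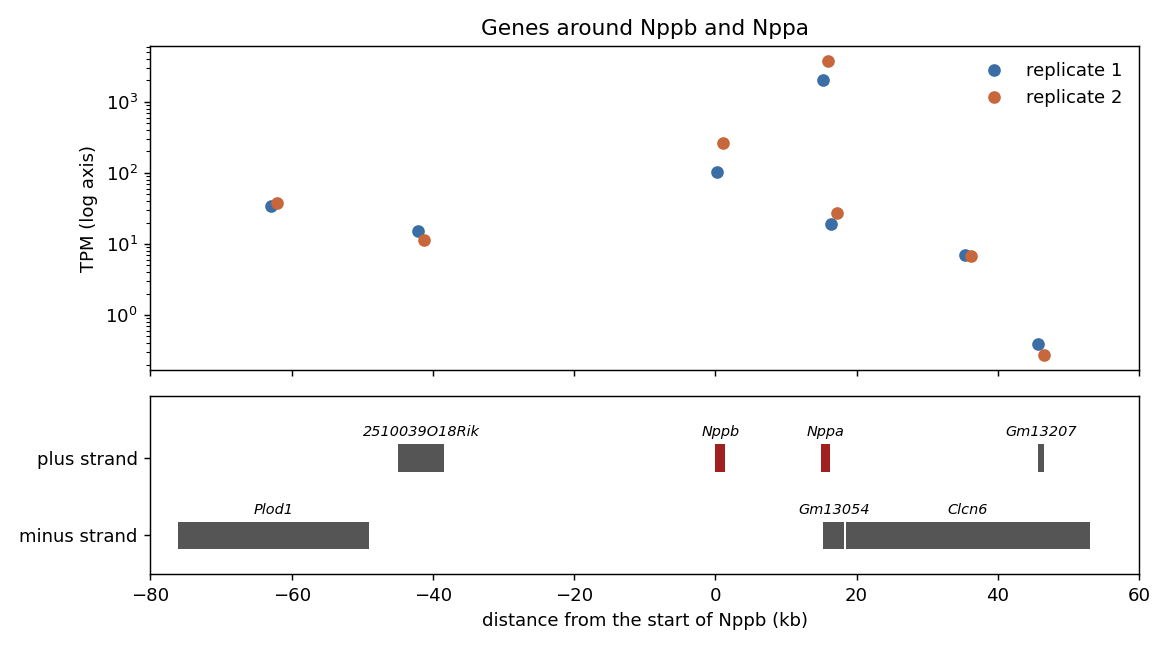
Upper panel, TPM (log axis) in replicate 1 (blue) and replicate 2 (orange) for annotated genes less than 50 kb from Nppb, each pair of points centred on its gene; lower panel, gene positions by strand as distance from the start of Nppb (kb). Nppa at 2000.5 and 3797 TPM and Nppb at 103 and 261 TPM are the highest, and the neighbours lie at or below 38.1 TPM.

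The upstream sequence of the member genes was searched. It is printed, in full or in part, for the 2 abundant ligand genes, picked for their high levels and their ratios between the pools. The reference sequence is shared by both pools and does not describe a difference between them. Short motifs were searched on both strands in the 250 bases before each RefSeq start (GRCm38.p6), counted with any overlap: GATAA for the zinc-finger factors of the Gata family, AAGTG for Nkx2-5, GGTGTGA for T-box factors, CATTCC for Tead factors and TATAAA for the core promoter box. Capitals mark the matches, on either strand, in the 250 bases before the Nppa start.
Nppa upstream, chr4:148000472-148000721, plus strand: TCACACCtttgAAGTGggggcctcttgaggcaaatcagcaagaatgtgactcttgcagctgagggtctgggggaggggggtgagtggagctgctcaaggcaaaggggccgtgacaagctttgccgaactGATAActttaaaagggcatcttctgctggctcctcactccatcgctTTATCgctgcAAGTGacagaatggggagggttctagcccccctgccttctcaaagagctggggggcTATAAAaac
Nppb, chr4:147985799-147985828, plus strand: tgcagctGATAAatcagaGATAAccccacc
Nppa held GATAA at 121 and 75 bases before its start, AAGTG at 239 and 65, GGTGTGA at 250 and TATAAA at 9, and no CATTCC. Nppb held GATAA at 94 and 83 bases before its RefSeq start, CATTCC at 105 and TATAAA at 31. The 30 bases printed for Nppb lie inside exon 1 of the GENCODE annotation, whose start is 112 bases upstream of the RefSeq start. At least 2 matches of GATAA were found in 4.28% of 32851 promoters of the same length and at least 1 in 22.6%. The shares with at least 1 match were 40.7% for AAGTG, 3.33% for GGTGTGA, 12.6% for CATTCC and 12.4% for TATAAA. Of the other genes, Nppc held TATAAA at 29 bases, 1 of the 2 Furin promoters held AAGTG at 204, 168, 76 and 37 bases and TATAAA at 23, and none of the motifs was found for Corin, Npr1, Npr2 or Npr3. A match is a description of the letters and does not show that a factor binds there.

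Transcription factors known to act on Nppa or Nppb were all detected, 22 of 22. The highest were Nkx2-5 (121 and 159 TPM, log2 ratio 0.50), Gata4 (107 and 110 TPM, 0.13) and Hand1 (87.9 and 80.8 TPM, −0.02), factors of heart muscle. Of the 22 genes, 11 were higher in replicate 2, 1 was at least 2-fold higher and 3 were at least 2-fold lower, with a median of −0.01. List counts past 2-fold and medians are for genes with a mean count of 50 or more under TMM scaling; the shift of 0.32 under spike-in scaling would turn this median above 0. Among the lowest ratios were Isl1, a factor of progenitor cells (22.7 and 5.94 TPM, −1.73), and Tbx2, a repressor of chamber genes including Nppa (6.34 and 2.11 TPM, −1.48).

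Of 9 genes for other peptide-degrading enzymes and the clearance receptor ligand osteocrin, 6 were detected, and none of those with a mean count of 50 or more passed 2-fold. Ece1, an endothelin-converting enzyme, stood at 98.4 and 139 TPM (0.53), its relative Ece2 at 34.1 and 26.2 TPM (−0.30) and Ide, the insulin-degrading enzyme, at 41.5 and 53.4 TPM (0.34). Dpp4, a dipeptidyl peptidase, had the largest ratio (0.77) of the 6 with a mean count of 50 or more. Ostn, the gene of osteocrin, had 0 and 3 counts, Mep1a 0 and 1, and Mep1b 0 in both.

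Of 8 other proprotein convertase genes, 6 were detected and 0 were at least 2-fold higher in replicate 2. Mbtps1, the site-1 protease, led at 68.1 and 78.8 TPM, above Furin in both pools. Pcsk5 stood at 13.9 and 15.7 TPM and Pcsk7 at 12.9 and 16.6 TPM, close to Furin, and Pcsk6, a convertase able to activate corin, at 2.91 and 4.36 TPM (0.73). Pcsk1 had 6 and 0 counts and Pcsk2 22.9 and 6.

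Soluble guanylyl cyclase, the receptor of nitric oxide, exceeded both natriuretic cyclases. Its subunits Gucy1a1 (27.9 and 33.3 TPM) and Gucy1b1 (26.9 and 35.8 TPM, 0.57) were the 2 genes detected of 8 other guanylyl cyclase genes. Gucy1a2 stood at 0.85 and 0.99 TPM and Gucy2e at 0.20 and 0.38 TPM (0.83). Gucy2c had 9 and 0 counts, Gucy2d 0 and 1, Gucy2g 0 and 3, and Gucy2f 0 in both. None of the 4 with a mean count of 50 or more passed 2-fold.

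Downstream of cyclic GMP, 8 of 9 phosphodiesterase genes found were detected, all at low levels. Pde9a stood at 11.5 and 4.62 TPM (−1.06), Pde1a at 5.78 and 8.81 TPM (0.77), Pde3a at 4.83 and 5.15 TPM (0.19) and Pde5a at 2.45 and 1.09 TPM (−1.06). Pde9a and Pde5a, both specific for cyclic GMP, were the 2 of 8 with a mean count of 50 or more that passed 2-fold, each lower in replicate 2, and the shift of 0.32 under spike-in scaling brings both inside 2-fold. Pde11a, below that mean count, had 38 and 8 counts (−1.94). Among 12 effectors and kinase substrates 8 were detected. Pln, the gene of phospholamban, stood at 125 and 330 TPM (1.51), Vasp at 82.3 and 95.01 TPM (0.30) and Ppp1r12a at 48.8 and 55.9 TPM. Pln was the single gene at least 2-fold higher, and Rgs4 (2.97 and 1.03 TPM, −1.38) the single gene at least 2-fold lower. Of the cyclic GMP dependent kinases, Prkg1, named after its values were seen, stood at 10.6 and 15.6 TPM and Prkg2 at 0.69 and 0.52 TPM, and the channel genes Cnga2 (5 and 2 counts), Cnga3 (7 and 0) and Cnga1 (0 in both) were at or near 0.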

How the data were processed

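For each library the authors deposited 1 gene table and 1 transcript table. The mm10 assembly is named per the labels, and GENCODE M4 by the description deposited with each library. The deposited tables give an expected count, an estimate of reads per feature that is not normalised, and a posterior mean count. They also give TPM and FPKM, both corrected for length and depth by the authors. The bounds of the deposited TPM credibility interval were treated as a score. They describe the posterior mean, so a TPM can lie outside them. The deposited transcript tables give the percent of the gene TPM held by each transcript. For the quantifying program, its version and the use of strand, nothing is stated: not given in the sources used here.

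Names and positions came from GENCODE M21 (GRCm38); 42462 of 43346 genes matched. Promoter sequences are from RefSeq (GRCm38.p6). Of the 19 transcripts named, 18 had the same length in both releases; Npr3-201 had 6927 nt in the tables and 6892 nt in M21. Depth was 45205713 and 41070978 expected counts, with 4.22% and 3.13% on spike-ins; 0 counts in a library leave room for 3.

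Differences between the pools are log2 ratios of expected counts, not rounded, after TMM scaling with edgeR 4.0.16, with a prior count of 0.5. They were computed over all genes and tested on simulated data. In the simulated data equal numbers of genes were set higher and lower, so an unequal split between the pools was not covered. Genes of mean count 50 or more form the background. Reads are not independent molecules, so intervals cover counting error only. Alternatives were DESeq2 1.42.0 size factors, spike-in scaling, posterior means, expected counts between genes, other thresholds and prior counts, and each pool alone. FPKM was not used for a printed value. R 4.3.3 and Python 3.11.15 were used. The member genes and the lists were chosen with earlier results of these data known. The genes named are all 8 members, their transcripts of 5% or more of the gene, the 3 highest, those below 1 TPM in both pools and the 2 with the largest ratio in each pathway list, the 2 highest in each marker list where cited, and genes that overlap a member or lie next to Nppa and Nppb. Pde2a was not matched and is not analysed here. Some results that fall under this rule are not reported here.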

Additional observations from a re-analysis of the deposited data

How the results depend on the processing

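Between member genes, the log2 ratios checked were the receptor pairs, Nppa over Nppb, Nppb over Nppc, Nppa over Corin and Corin over Furin. Those that moved by more than the SD of the pools or changed sign were the receptor pairs, Nppa over Corin and Nppb over Nppc. Some pairs outside this list also moved by expected counts. Nppb over Corin went from 3.57 ± 0.55 to 0.83, and Nppa over Furin from 7.41 ± 0.50 to 5.01. Npr1 over Npr2 went from 0.50 to −0.0797 with protein-coding transcripts, an alternative added after seeing the data. Npr1 over Npr3, −0.21 ± 0.44 as reported, was −1.64 by expected counts and −1.07 with protein-coding transcripts, and ranged from −0.52 to 0.10 when 1 pool was left out. Npr2 over Npr3, −0.72 ± 0.22, was −2.17 by expected counts, −0.47 by posterior means and −0.99 with protein-coding transcripts. Nppa over Corin went from 7.64 to 5.07 by expected counts, which are not divided by length, and Nppb over Nppc from 9.05 to 6.98 with a pseudocount of 1. With spike-in scaling the ratios of replicate 2 over replicate 1 were 1.35 for Nppa, 1.76 for Nppb, 1.01 for Corin and 0.0628 for Npr1, which changed sign, and 3 genes passed 2-fold. That scaling raised the share of higher genes among those past 2-fold from 32.3% to 68.2% over all tested genes. With deposited TPM 1 gene passed 2-fold, since Nppa gave 0.92, and the median of the phosphodiesterase list went from −0.01 to 0.0175. Among the checks on transcript shares, 8 moved and 52 did not, and those that moved were of Npr1 and Npr2. Without the minimum count, 27.4% of all genes passed 2-fold. No paired analysis was possible because there was 1 group only. With 2 pools, the 9 and 8 counts of Nppc and transcripts of a few counts set the limit, and no difference between the pools has a replicate check.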
